A study of Mus musculus with 6 samples.

Results

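Interfollicular basal keratinocytes are the cells of the lowest layer of the epidermis between the hair follicles. Here they were the 858 cells, of 21178 from the skin of 6 mice, that met a rule written on gene values and not on clusters. A member had Krt5 and Krt14, the basal keratins, at a sum of at least 50 UMIs (unique molecules counted) per 10000 UMIs of the cell. The keratins Krt1 and Krt10 of the suprabasal layers had to sum to less than 50, and the stress keratins Krt6a, Krt6b and Krt16 to less than 10. At least 2 of the 5 interfollicular genes Serpinb2, Fcgbp, Igfbp3, Ndufa4l2 and Col17a1 had to be detected. Fewer than 3 of 7 bulge and germ genes and fewer than 3 of 7 upper follicle genes could be detected, no UMI of Ptprc or Cd3e was allowed, and Mki67 and Top2a could not both be present. These values chose the members, so the levels of those genes are given as a description and were not tested.

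Basal keratinocytes are held to the basement membrane by hemidesmosomes and integrins, divide, and replace the layers above them. They also answer interferons: interferon-gamma, made by T cells, and type I interferons act through receptors and STAT factors on genes of antiviral defence, antigen presentation and chemokines that attract T cells. In skin these responses let keratinocytes display peptide antigen on class I molecules to CD8 T cells.

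All 6 mice were of the NINJA strain, whose cells can be made to express a neoantigen, were 6 to 12 weeks old, and gave cells from a skin area treated with 4-OH-Tam. The labels put 2 mice in NO_AG (antigen off), 2 in AG (antigen on) and 2 in AG_CPI (antigen on with CPI, a treatment that the labels do not spell out). Before sequencing, every animal had been checked for its skin pathology and for P14 CD8 T cells in the skin, so the mice entered with a known phenotype, and the cells that carried the antigen are not named in the labels. The mice are numbered as biological replicates, and no sex, batch or date is given. Per library, 1736 to 4972 cells held 5903724 to 24656382 UMIs, and every cell had between 1501 and 14995 UMIs. In all, 255 cell barcodes occurred in more than 1 library, and 18 members carried such a barcode. The members of AG_CPI 1 had no UMI of Xist and 2 of the Y-linked gene Ddx3y, while those of the other 5 mice had Xist at 4.05 to 7.35 UMIs per 10000 and Ddx3y at 0.

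Members were most numerous in the mice with the antigen off. NO_AG 1 and NO_AG 2 gave 439 and 275 members, AG 1 and AG 2 gave 89 and 36, and AG_CPI 1 and AG_CPI 2 gave 13 and 6. As a share of the cells with Krt5 and Krt14 at 50 or more, members were 20.9% in NO_AG 1 and 16.1% in NO_AG 2, 9.37% in AG 1 and 1.88% in AG 2, and 8.28% in AG_CPI 1 and 2.69% in AG_CPI 2. The Wilson 95% intervals were 19.2% to 22.6% and 14.4% to 17.9% in NO_AG, 7.68% to 11.4% and 1.36% to 2.59% in AG, with 4.90% to 13.7% and 1.24% to 5.74% in AG_CPI, and they cover counting error only. Both NO_AG mice lay above the other 4, and the AG and AG_CPI mice overlapped. The mean fell by 12.9 percentage points from 18.5% ± 3.36 (SD, n = 2) in NO_AG to 5.63% ± 5.29 (SD, n = 2) in AG, with an exact two-sided permutation p of 0.333, which is the smallest that 2 against 2 mice can give. Of all cells, members were 8.83% and 6.72% in NO_AG, 2.54% and 0.772% in AG, with 0.749% and 0.272% in AG_CPI.

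**Figure D1:**
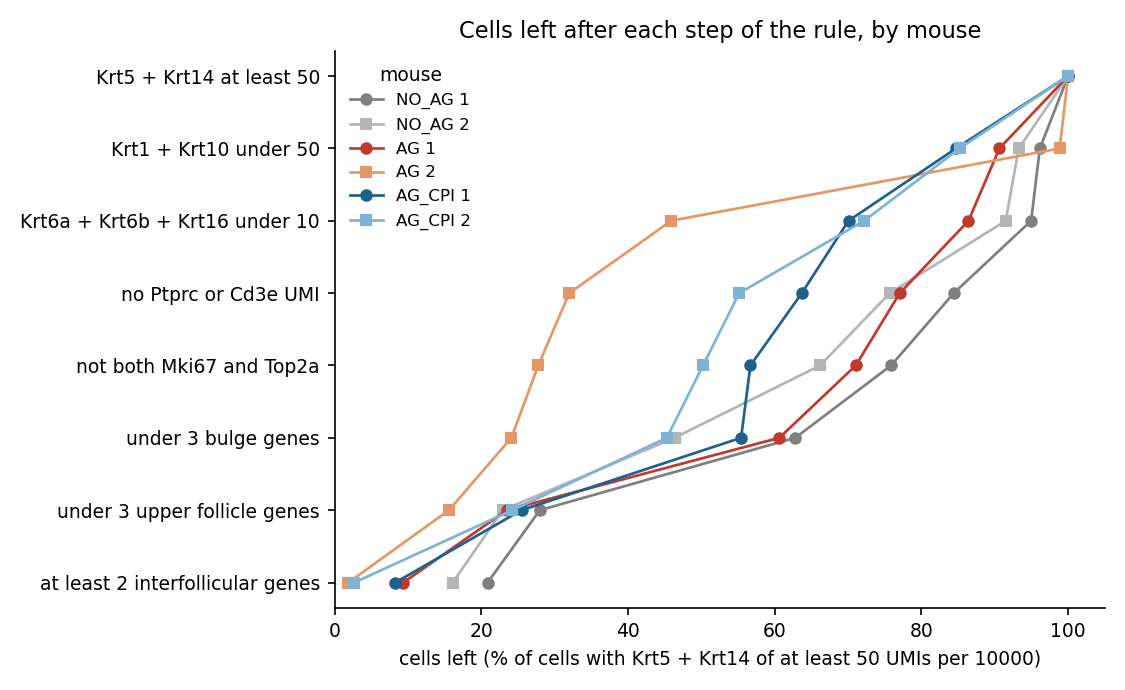
Share of Krt5- and Krt14-high cells left (x axis, %) after each step of the rule in turn (y axis, top to bottom), with 1 line per mouse. AG 2 leaves the other mice at the Krt6a, Krt6b and Krt16 step, which 53.6% of its cells failed, and all mice but the 2 of NO_AG end below 10%.

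The steps at which cells were lost differed between mice, as the plot of cells left after each step shows. The stress keratin step was failed by 1.24% and 1.76% of the Krt5- and Krt14-high cells in NO_AG, by 5.05% in AG 1, by 53.6% in AG 2, and by 16.6% and 22.4% in AG_CPI. Ptprc or Cd3e was detected in 10.9% and 18.0% in NO_AG, 9.79% and 30.4% in AG, with 14.0% and 26.5% in AG_CPI. Mki67 and Top2a were both detected in 10.2% and 16.6%, 7.05% and 21.0%, and 11.5% and 9.42%. Fewer than 2 interfollicular genes were detected in 38.2% and 39.3% of these cells in NO_AG, 48.5% and 81.2% in AG, with 61.1% and 71.3% in AG_CPI. Detection depends on depth: the Krt5- and Krt14-high cells had a median of 5323 and 5877 UMIs in NO_AG, 6876 and 2573 in AG, with 3632 and 4107 in AG_CPI. With each cell thinned to 1500 UMIs, so that depth was equal, members were 33.3% and 28.8% in NO_AG, 19.4% and 2.22% in AG, with 14.0% and 3.26% in AG_CPI, and both NO_AG mice again lay above the other 4. Thinned members numbered 662 and 459 in NO_AG, 179 and 40 in AG, with 21 and 7 in AG_CPI. They are more than the unthinned members in every mouse, so they are not the same set of cells. The share therefore counts cells that passed a rule. Fewer cells of this kind, less RNA of the genes it required and more RNA of the genes it excluded cannot be told apart here.

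Among members, the rule genes kept different levels. Fcgbp stood at 15.9 and 15.2 UMIs per 10000 in NO_AG, 16.4 and 9.18 in AG, with 5.62 and 15.8 in AG_CPI. Col17a1, a hemidesmosome collagen, stood at 10.2 and 10.98 in NO_AG, 9.32 and 7.54 in AG, with 7.22 and 10.9 in AG_CPI. Igfbp3 was at 3.23 and 4.17 in NO_AG, 1.89 and 0.452 in AG, with 1.41 and 0 in AG_CPI. Cells with exactly 2 interfollicular genes, the members nearest the edge of the rule, were 10.5% and 12.4% of members in NO_AG, 21.3% and 69.4% in AG, with 38.5% and 83.3% in AG_CPI. These edge members had Krt15 at 62.9 and 57.5 in NO_AG, 23.6 and 9.56 in AG, and cells that failed the rule by 1 interfollicular gene alone had Krt15 at 41.7 and 34.2 in NO_AG and 17.9 and 7.14 in AG. The edge members of AG 1 and AG 2 had the upper follicle keratin Krt79 at 25.7 and 20.6, and those of NO_AG at 17.5 and 20.5.

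The label was checked with marker lists, most of whose genes the rule did not use. Cd3e, of which members could have no UMI, is among the T cell markers. The hair follicle bulge list names Lgr5, a bulge gene of the rule. All 10 further basal keratinocyte markers were detected in the members of every mouse. Trp63, the p63 factor that maintains basal cells, was at 4.06 and 4.11 UMIs per 10000 in NO_AG, 2.56 and 2.44 in AG, with 4.59 and 4.64 in AG_CPI, and the integrin Itga6 was at 4.39 and 4.15, 3.09 and 4.19, and 7.02 and 3.64. The summed level of those 10 markers was 161 and 167 in NO_AG, 89.0 and 56.3 in AG, with 71.2 and 63.7 in AG_CPI. Krt15 alone was 99.1 and 107 of that sum in NO_AG, 31.6 and 15.4 in AG, with 12.0 and 9.80 in AG_CPI. Most of the fall in the sum is therefore that of 1 gene. Endothelial markers were at 0.0470 or less in each mouse and Merkel cell markers at 0.00538 or less. Markers of other skin cells did not stay equal. The 6 infundibulum and upper follicle markers summed to 15.3 and 16.9 in NO_AG, 41.4 and 71.4 in AG, with 8.72 and 6.26 in AG_CPI. Krt17, 1 of the 6, was 3.93 and 6.06 of that sum in NO_AG, 27.0 and 19.8 in AG, with 1.51 and 2.05 in AG_CPI. It made most of the sum in AG 1 but not in AG 2. The 12 T cell markers summed to 0.554 and 0.510 in NO_AG, 0.740 in AG 1, 11.2 in AG 2, and 4.52 and 11.3 in AG_CPI, and the 9 myeloid markers to 0.516 and 0.556, 0.198 and 7.67, and 0.197 and 0. The 6 sebaceous gland markers summed to 6.95 and 5.98 in NO_AG, 7.78 and 22.4 in AG, with 14.9 and 5.17 in AG_CPI, and the 6 hair follicle bulge markers to 2.35 and 2.55, 3.49 and 5.16, and 2.42 and 8.20. The part of these markers in the results that follow was not tested.

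With the antigen on, members carried more transcripts of interferon-stimulated genes. Of 7028 genes tested in limma over the mouse means, 16 were called at a Benjamini-Hochberg adjusted p under 0.05 in AG against NO_AG (0.228%), 15 higher (0.213%) and 1 lower (0.0142%). At an unadjusted p under 0.05 there were 729. The number called depended on the setting: limma called none with cells thinned to 1500 UMIs (493 at an unadjusted p under 0.05), none without a filter on low values (1254), none with libraries of 5 or more cells (313, a setting chosen after seeing the data), 1 with at least 3 interfollicular genes required, 3674 without AG 1 and 1667 without AG 2. Among the 15 that rose were Ccl8, Ifi27l2a, Isg15, Gbp2, Bst2, Rtp4, Aqp3, Stfa3, Ifitm3, Oasl2, Apol9b, Ly6e, Cxcl9 and Apol9a, and Pyy fell. The median log2 fold change over all genes tested was -0.16, so the changes below are read against that shift.

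Ifi27l2a, a gene known for its strong induction by interferons, stood at 0.761 and 1.49 UMIs per 10000 in NO_AG, 21.8 and 20.1 in AG, with 14.7 and 6.55 in AG_CPI. The AG mice lay far above the NO_AG mice and close to each other, with a log2 fold change of 4.15 ± 0.31 (SE) and an adjusted p of 0.0298 (limma). Isg15, a ubiquitin-like protein that is joined to other proteins in antiviral defence, stood at 0.237 and 0.444 in NO_AG, 5.26 and 5.31 in AG, with 1.03 and 0.510 in AG_CPI. Its log2 fold change was 3.65 ± 0.28 (SE) with an adjusted p of 0.0298 in limma, and no AG value overlapped a NO_AG value. Gbp2, a guanylate-binding protein that acts against intracellular microbes, stood at 0.784 and 0.757 in NO_AG, 6.22 and 5.42 in AG, with 0.958 and 2.66 in AG_CPI. It rose by 2.75 ± 0.22 (SE) on the log2 scale, with an adjusted p of 0.0298 in limma.

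The other called genes of the type I list had similar values in both AG mice. Bst2, which tethers budding virus to the cell, was at 0.333 and 0.437 in NO_AG and 3.29 and 3.103 in AG. Rtp4 was at 0.110 and 0.137 in NO_AG and 1.57 and 1.69 in AG, and Oasl2, of the oligoadenylate synthetase family, at 0.104 and 0.166 against 1.26 and 1.59. Ifitm3, a membrane protein that blocks virus entry, was at 8.61 and 9.37 in NO_AG and 29.9 and 32.0 in AG, with 23.05 and 16.3 in AG_CPI. Of the 32 listed type I interferon-stimulated genes 30 had values and 16 passed the filter on low values. Of these, 6 were called higher, 14 had both AG mice above both NO_AG mice (a pattern of 16.9% of all genes tested), and the median log2 fold change was 1.96 against -0.16 over all genes. Genes that are detected with the antigen on alone can pass the filter through the AG mice, so these counts describe the genes that passed and not the whole list. Ifit1 (0.0427 and 0.0775 in NO_AG, 0.793 and 1.31 in AG) missed the threshold with an adjusted p of 0.0526 in limma.

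Of the 32 listed interferon-gamma response genes 26 had values and 13 were tested; 3 were called higher (0.213% of all genes tested) and 10 had the AG mice above the NO_AG mice (16.9%), with a median log2 fold change of 1.52. Cxcl9, a chemokine that draws CXCR3-bearing T cells, was at 0.185 and 0.397 in NO_AG, 7.52 and 4.13 in AG, with 1.53 and 3.75 in AG_CPI, a log2 fold change of 3.92 ± 0.42 (SE) with an adjusted p of 0.0485 in limma. The sister chemokine Cxcl10 had values of 0.191 and 0.575 in NO_AG and 7.18 and 2.76 in AG; the AG mice differed from each other by more than those of Cxcl9, and the adjusted p was 0.264 in limma. Irf1 was at 0.502 and 0.438 in NO_AG and 0.768 and 0.479 in AG, with an adjusted p of 0.707, and Socs1, a feedback inhibitor of the pathway, at 0.149 and 0.137 against 0.621 and 0.564, with an adjusted p of 0.321 in limma. Igtp, an immunity-related GTPase, was at 0.428 and 0.333 against 1.74 and 0.996, with an adjusted p of 0.389.

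**Figure D2:**
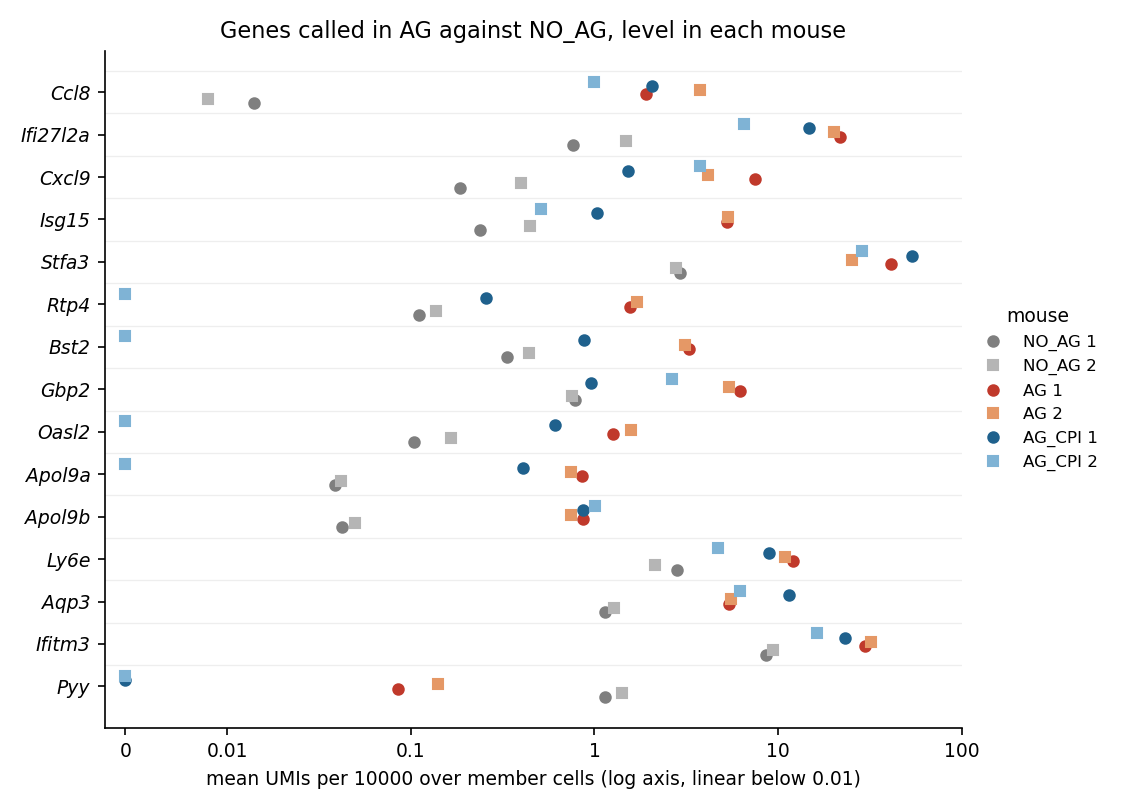
Mean UMIs per 10000 over member cells (x axis, log scale above 0.01) of 15 of the 16 genes called in AG against NO_AG, with 1 point per mouse. Both AG mice lie to the right of both NO_AG mice for 14 genes and to the left for Pyy, and the AG_CPI points rest on 13 and 6 cells.

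Promoters of the 3 genes of the type I and interferon-gamma lists that had the smallest p and an entry are shown because the members' response is read from them. They are RefSeq sequences on GRCm38.p6 from 250 bases before to 50 bases after the annotated start, in the direction of transcription. Capitals mark every match, on either strand, to the IRF site core GAAANNGAA or the GAS core TTCNNNGAA, the letters bound by interferon regulatory factors and by STAT dimers. Ifi27l2a had no entry.
Isg15, chr4:156200769-156201068, minus strand: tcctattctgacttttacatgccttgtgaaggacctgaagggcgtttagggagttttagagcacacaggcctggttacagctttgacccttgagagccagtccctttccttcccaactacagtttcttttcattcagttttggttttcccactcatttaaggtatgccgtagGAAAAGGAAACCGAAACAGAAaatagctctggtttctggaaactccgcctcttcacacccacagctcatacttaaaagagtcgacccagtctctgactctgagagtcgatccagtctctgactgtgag
Gbp2, chr3:142620413-142620712, plus strand: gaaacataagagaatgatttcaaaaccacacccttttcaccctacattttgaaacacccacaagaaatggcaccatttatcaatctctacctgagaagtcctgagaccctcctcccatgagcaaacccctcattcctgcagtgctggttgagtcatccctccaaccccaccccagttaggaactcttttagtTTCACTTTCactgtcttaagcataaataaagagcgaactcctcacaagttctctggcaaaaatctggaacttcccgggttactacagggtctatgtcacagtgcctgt
Bst2, chr8:71537423-71537722, minus strand: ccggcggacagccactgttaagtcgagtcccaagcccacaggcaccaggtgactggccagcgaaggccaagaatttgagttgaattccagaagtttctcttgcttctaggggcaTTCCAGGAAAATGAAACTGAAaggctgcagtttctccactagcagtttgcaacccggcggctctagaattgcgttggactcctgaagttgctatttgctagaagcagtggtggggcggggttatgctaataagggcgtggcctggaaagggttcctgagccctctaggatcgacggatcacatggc
Isg15 held 3 overlapping IRF matches, whose first bases lie 78, 72 and 66 bases upstream of the start, and no GAS match. Gbp2 held 1 IRF match 58 bases upstream, read on the opposite strand. Bst2 held a GAS match 136 bases upstream that overlaps the first of its 2 IRF matches at 130 and 124. Igfl3, of the IGF-like family and on neither list, had no UMI in the NO_AG members, 0.0871 and 0.724 UMIs per 10000 in AG and none in AG_CPI, and did not pass the filter, nor did its receptor gene Igflr1. Over all 32851 promoter windows of the table, 8.56% held the IRF core and 8.30% the GAS core. Of the 16 called genes 12 had a window, of which 7 held the IRF core and 2 the GAS core; 3 of the 12 had 2 windows each. A match is a run of letters and not a shown binding site.

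Other called genes lie outside these lists. Stfa3, a stefin that inhibits cysteine proteases, was at 2.94 and 2.77 in NO_AG, 41.2 and 25.3 in AG, with 53.8 and 28.5 in AG_CPI, a log2 fold change of 3.44 ± 0.30 (SE) in AG against NO_AG with an adjusted p of 0.0298 in limma. Stefin genes are near-identical copies, so reads could be split among them. Aqp3, the water and glycerol channel of the epidermis, was at 1.14 and 1.28 in NO_AG, 5.41 and 5.55 in AG, with 11.5 and 6.23 in AG_CPI. In both AG_CPI mice Stfa3 and Aqp3 lay above the NO_AG mice and Isg15 below the AG mice. Ly6e was at 2.81 and 2.13 in NO_AG, 12.1 and 10.9 in AG, with 8.92 and 4.72 in AG_CPI. Ccl8, a chemokine that draws monocytes and T cells, had 5 UMIs in the 439 members of NO_AG 1 and 1 in the 275 of NO_AG 2, against 90 in the 89 members of AG 1 and 44 in the 36 of AG 2. Ccl8 thus passed the filter on low values through mice with the antigen on alone. Its call describes a gene that was let in where it is high. Apol9a and Apol9b, a pair of near-identical apolipoprotein L copies whose reads cannot be told apart with confidence, were both called higher. Apol9a was at 0.0384 and 0.0418 in NO_AG and 0.853 and 0.742 in AG. Apol9b was at 0.0424 and 0.0494 against 0.868 and 0.742. Both genes, like Ccl8, passed the filter through mice with the antigen on alone, so their calls describe genes let in where they are high. Pyy, the gene of peptide YY, was at 1.15 and 1.42 in NO_AG, 0.0848 and 0.140 in AG, and had no UMI in the AG_CPI members; it fell by 2.76 ± 0.29 on the log2 scale, with an adjusted p of 0.0485 in limma.

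None of the 23 tested class I presentation genes was called in limma, 16 had the AG mice above the NO_AG mice (16.9% of all genes tested), and the median log2 fold change was 0.69. H2-K1, a class I heavy chain, was at 17.7 and 20.9 in NO_AG, 26.1 and 18.9 in AG, with 16.9 and 18.0 in AG_CPI, so the groups overlapped. The other heavy chain H2-D1 was at 12.2 and 13.7, 17.6 and 11.7, and 13.2 and 17.1. B2m, the light chain, was at 16.6 and 17.5, 27.8 and 23.5, and 23.9 and 20.3, with an adjusted p of 0.461 for AG against NO_AG in limma. The immunoproteasome subunit Psmb8 was at 2.73 and 3.62 in NO_AG and 8.01 and 5.63 in AG, and the peptide transporter Tap1 at 1.25 and 1.44 against 2.24 and 1.95; neither was called. None of 6 class II presentation genes was called, with a median of 1.35. Cd74, the class II chaperone and also a marker of Langerhans cells, was at 3.73 and 3.65 in NO_AG, 9.11 and 15.5 in AG, with 3.12 and 11.3 in AG_CPI, with an adjusted p of 0.161 in limma. The 4 Langerhans cell markers, Cd74 among them, summed to 5.26 and 5.60 in NO_AG, 10.3 and 17.9 in AG, with 4.02 and 12.8 in AG_CPI. Cd274, which encodes PD-L1, was at 0.0408 and 0.101 in NO_AG and 0.0604 and 0.0672 in AG, and did not pass the filter, and H2-Aa, a class II chain, was at 1.40 and 1.19 against 1.76 and 4.59.

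**Figure D3:**
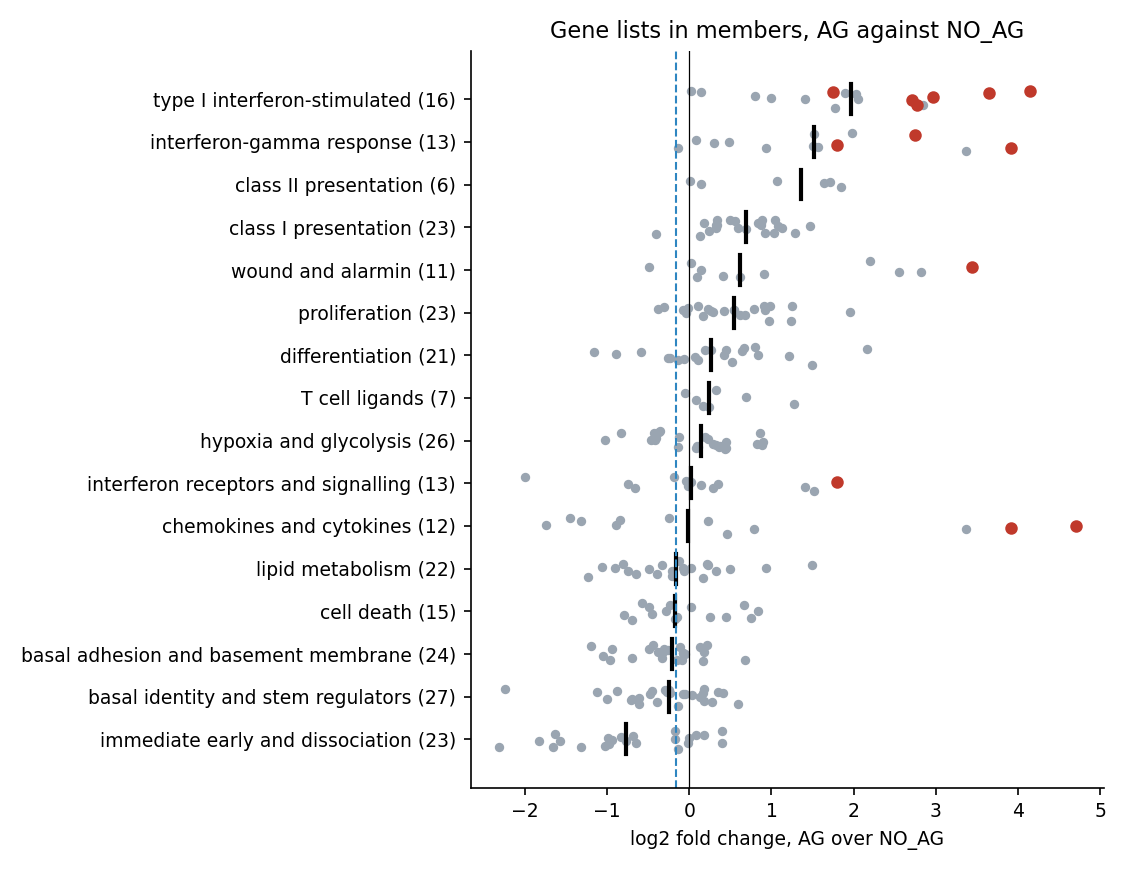
Log2 fold change of AG over NO_AG (x axis) for each tested gene of 16 lists (y axis, number tested in brackets). Red points passed an adjusted p under 0.05, black bars are list medians, the thin line is 0 and the dashed line the median of all genes (-0.16); the 2 interferon lists sit furthest right, with medians of 1.96 and 1.52.

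No interferon receptor gene passed the test. Ifngr1, the ligand-binding chain of the interferon-gamma receptor, was at 2.61 and 1.96 in NO_AG, 0.677 and 0.367 in AG, with 0.679 and 0 in AG_CPI; both AG mice lay below both NO_AG mice, with a log2 fold change of -2.00 ± 0.36 (SE) and an adjusted p of 0.274 in limma. Groups lay apart in that direction for 30.8% of all genes tested. Ifngr2 was at 0.264 and 0.323 in NO_AG and 0.272 and 0.227 in AG, and Ifnar2, a chain of the type I receptor, at 0.375 and 0.295 against 0.476 and 0.392; the other chain gene Ifnar1 did not pass the filter. Tnfrsf1a, a receptor for tumour necrosis factor, was at 1.86 and 2.00 against 1.56 and 1.26. Over 13 tested genes for interferon receptors and signalling, the median log2 fold change was 0.02. Among 12 tested chemokines and cytokines, Ccl8 and Cxcl9 were called higher and 6 had the AG mice below the NO_AG mice (30.8% of all genes tested). Of these, Ccl8 passed the filter through mice with the antigen on alone. Ccl27a, a skin chemokine for memory T cells, was at 12.6 and 16.2 in NO_AG, 7.18 and 2.52 in AG, with 1.65 and 0.971 in AG_CPI, and Cxcl14 at 7.99 and 8.40, 6.25 and 1.39, and 1.95 and 0. The alarmin Il33 was at 0.722 and 1.02 in NO_AG and 0.443 and 0.183 in AG. None of these 3 was called, with adjusted p of 0.426, 0.518 and 0.427 in limma. Cxcl16 was at 0.606 and 0.727 against 1.22 and 1.24 and Il34 at 0.309 and 0.296 against 0.218 and 0.272, and neither was called; Il15, Il18 and Il1a did not pass the filter, with 0.172 as their highest value in the NO_AG and AG mice.

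No gene of basal identity or adhesion passed the test, and the largest difference was that of Krt15. Krt15, a keratin of basal cells, was at 99.1 and 107 in NO_AG, 31.6 and 15.4 in AG, with 12.0 and 9.80 in AG_CPI. Both NO_AG mice lay above the other 4, with a log2 fold change of -2.24 ± 0.39 (SE) in AG against NO_AG and an adjusted p of 0.251 in limma. The members with at least 3 interfollicular genes, 393 and 241 in NO_AG and 70 and 11 in AG, had Krt15 at 103 and 114 against 33.8 and 28.8, so the AG mice were low on both sides of the rule's edge. Of 27 tested genes for basal identity and stem regulation none was called, 9 had the AG mice below the NO_AG mice (30.8% of all genes tested) and 1 above (16.9%), and the median was -0.24. Of 24 tested genes for basal adhesion and basement membrane none was called, 10 lay lower and 3 higher, and the median was -0.21. These counts are read against the same shares of 30.8% and 16.9%. Dst, a linker of hemidesmosomes, was at 10.0 and 8.58 in NO_AG, 4.73 and 4.28 in AG, with 3.16 and 3.60 in AG_CPI (adjusted p = 0.333 in limma), while Itgb4 was at 2.45 and 2.17 against 2.08 and 2.23 and Itgb1 at 1.34 and 1.503 against 0.886 and 1.43. The integrin Itga3 was at 0.978 and 0.624 against 0.874 and 0.941, and the laminin chain Lamb3 at 1.71 and 1.46 against 1.27 and 0.478. The caveolin Cav1 was at 1.27 and 1.37 against 1.73 and 0.684. Cd44, a hyaluronan receptor, was at 1.25 and 1.33 in NO_AG, 2.14 and 2.15 in AG, with 2.36 and 2.45 in AG_CPI, with an adjusted p of 0.420 in limma.

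Krt17, a keratin of follicles and stressed epidermis, was at 3.93 and 6.06 in NO_AG, 27.0 and 19.8 in AG, with 1.51 and 2.05 in AG_CPI, with an adjusted p of 0.101 in limma for AG against NO_AG. Its level differed with the number of interfollicular genes: members with at least 3 interfollicular genes had Krt17 at 2.42 and 3.04 in NO_AG and 11.1 and 11.4 in AG, and members with exactly 2 had it at 16.8 and 27.4 in NO_AG and 85.5 and 23.5 in AG. Isg15 was at 5.42 and 5.36 in AG members with 3 or more and at 4.68 and 5.29 in those with exactly 2, against 0.224 and 0.366 and 0.351 and 0.993 in NO_AG. Gbp2 was at 7.13 and 12.8 in AG members with 3 or more interfollicular genes and at 2.88 and 2.17 in those with exactly 2, against 0.793 and 0.821 and 0.704 and 0.297 in NO_AG. With at least 3 genes required of every member, which leaves 11 cells in AG 2, 1 gene was called (Cxcl9, adjusted p = 0.0312 in limma), and all 14 called genes that could be tested kept their direction.

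Of the remaining lists, immediate early and dissociation genes had a median log2 fold change of -0.77 over 23 genes, with none called and 15 lower in both AG mice (30.8% of all genes tested). Fos was at 4.78 and 5.25 in NO_AG, 1.53 and 0.572 in AG, with 0.807 and 0 in AG_CPI (adjusted p = 0.333 in limma), and Dusp1, a phosphatase that is switched on with it, at 2.61 and 3.05, 0.931 and 0.760, and 0.325 and 0. Such genes are also induced when tissue is dissociated into single cells. Of 23 proliferation genes, in cells from which those with both Mki67 and Top2a had been removed, none was called, 13 lay higher in both AG mice (16.9% of all genes tested), and the median was 0.55; Ube2c, which drives mitotic exit, was at 0.120 and 0.271 in NO_AG and 0.930 and 1.08 in AG. Of 21 differentiation genes none was called and the median was 0.27. Krtdap, a gene of the first differentiated layer, was at 2.52 and 2.94 in NO_AG, 9.64 and 16.7 in AG, with 20.3 and 3.20 in AG_CPI, with an adjusted p of 0.0598 in limma, and the 9 suprabasal markers summed to 89.96 and 93.4, 147 and 173, and 194 and 107. Lgals7 alone was 70.2 and 70.3, 114 and 142, and 137 and 94.2 of that sum. The suprabasal list also holds Krt1 and Krt10, which the rule kept low. No gene was called among 26 for hypoxia and glycolysis (median 0.15), 15 for cell death (-0.18; the death receptor Fas was at 0.182 and 0.186 in NO_AG and 0.209 and 0 in AG), 22 for lipid metabolism (-0.16; the lipase Mgll was at 0.976 and 0.811 against 0.616 and 0.157) or 7 T cell ligands (0.24); of 11 wound and alarmin genes Stfa3 was called (median 0.62). The alarmins S100a8 and S100a9 did not pass the filter, with no mouse above 0.0606.

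Single members were compared after each cell had been thinned to 1500 UMIs. The 30 type I interferon-stimulated genes gave a median of 1 UMI per cell in both NO_AG mice, 10 and 11 in the AG mice, and 7 and 4 in the AG_CPI mice. No UMI of the list was found in 26.0% and 26.2% of the NO_AG members and in none of the 89 and 36 AG members. The ranges still overlapped, since NO_AG members reached 29 and 22 UMIs and the lowest AG members had 1 and 2. The interferon-gamma list was less even: its median was 0 in both NO_AG mice and 1 and 2 in AG, 36.0% of AG 1 members and 11.1% of AG 2 members had none, and the highest AG 1 member had 56. Class I presentation genes gave medians of 10 and 12 in NO_AG, 18 and 15 in AG, with 12 and 13.5 in AG_CPI. Cells of 1 mouse are not replicates, so these spreads carry no test.

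**Figure D4:**
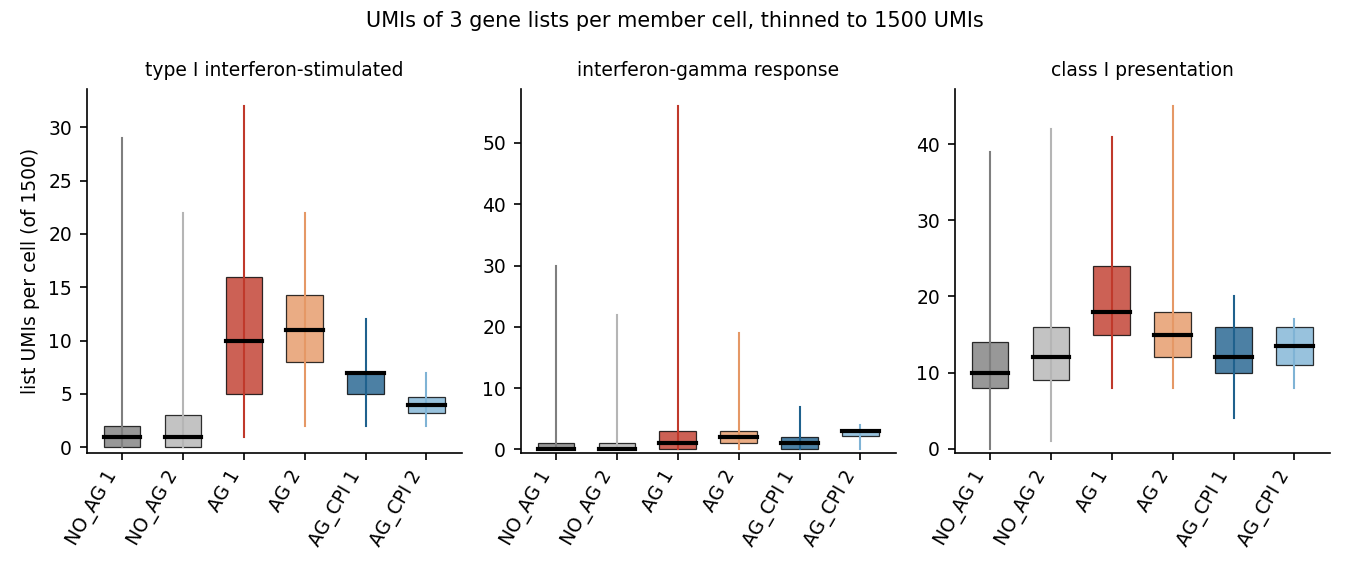
UMIs per member cell (y axis, of 1500 per cell) for 3 gene lists in each mouse (x axis). Boxes span the 25th to the 75th percentile, thick bars are medians and lines reach the lowest and highest cell; in the type I panel the medians are 1 and 1 in NO_AG and 10 and 11 in AG.

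The response was compared with that of other keratinocytes of the same mice, set apart by gene rules of the same kind: 796 bulge and germ cells, defined by at least 3 of the 7 bulge genes, and 1743 upper follicle cells, defined by at least 3 of the 7 upper follicle genes. The test was limma on the difference between members and the other class within each mouse. No gene differed in its change from NO_AG to AG at an adjusted p under 0.05, neither against bulge and germ cells (0% of 8144 tested, with 562 at an unadjusted p under 0.05) nor against upper follicle cells (0% of 7798, with 471). Isg15 rose from 0.156 and 0.400 to 3.95 and 6.51 in bulge and germ cells (adjusted p = 0.00233 in limma) and from 0.269 and 0.402 to 3.49 and 6.06 in upper follicle cells (adjusted p = 0.00179), and its change in members differed from these by -0.27 ± 0.37 and 0.19 ± 0.36 (SE) on the log2 scale. Suprabasal cells were not compared in this way, because AG 2 had 9 of them.

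Some genes had unequal values without passing that test. H2-K1 rose in bulge and germ cells from 7.63 and 5.01 to 19.7 and 20.8 (adjusted p = 0.0108 in limma), while members started at 17.7 and 20.9; the difference in change was -1.57 ± 0.41 (SE), with an adjusted p of 0.703 in limma. B2m rose there from 7.25 and 4.30 to 18.4 and 17.5 (adjusted p = 0.0257 in limma). Of the class I list 11 of 22 genes were called higher in bulge and germ cells, with a median log2 fold change of 1.32, where 0.417% of 7668 genes tested were called higher, and none of 23 in upper follicle cells, with a median of 0.62, where 0.356% of 7592 were. Krt15 was at 72.4 and 63.3 in NO_AG and 75.5 and 43.9 in AG bulge and germ cells, and at 64.9 and 74.5 against 29.5 and 14.8 in upper follicle cells. The Krt15 change in members differed by -2.07 ± 0.31 (SE) from bulge and germ cells and by -0.52 ± 0.24 (SE) from upper follicle cells, with adjusted p of 0.703 and 0.753 in limma. Krt17 was at 45.8 and 57.7 in NO_AG and 53.0 and 36.1 in AG bulge and germ cells, and at 8.38 and 9.05 against 21.5 and 15.8 in upper follicle cells. Ifngr1 had a low level in bulge and germ cells of both groups, from 0.129 to 0.207, and went from 1.40 and 1.38 to 0.465 and 0.275 in upper follicle cells, with an adjusted p of 0.0552 in limma. Cxcl10 was at 7.18 and 2.76 in AG members, 2.03 and 0.682 in AG bulge and germ cells and 1.34 and 1.06 in AG upper follicle cells, and Gbp2 at 6.22 and 5.42, 0.521 and 0.878, and 1.58 and 1.39.

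**Figure D5:**
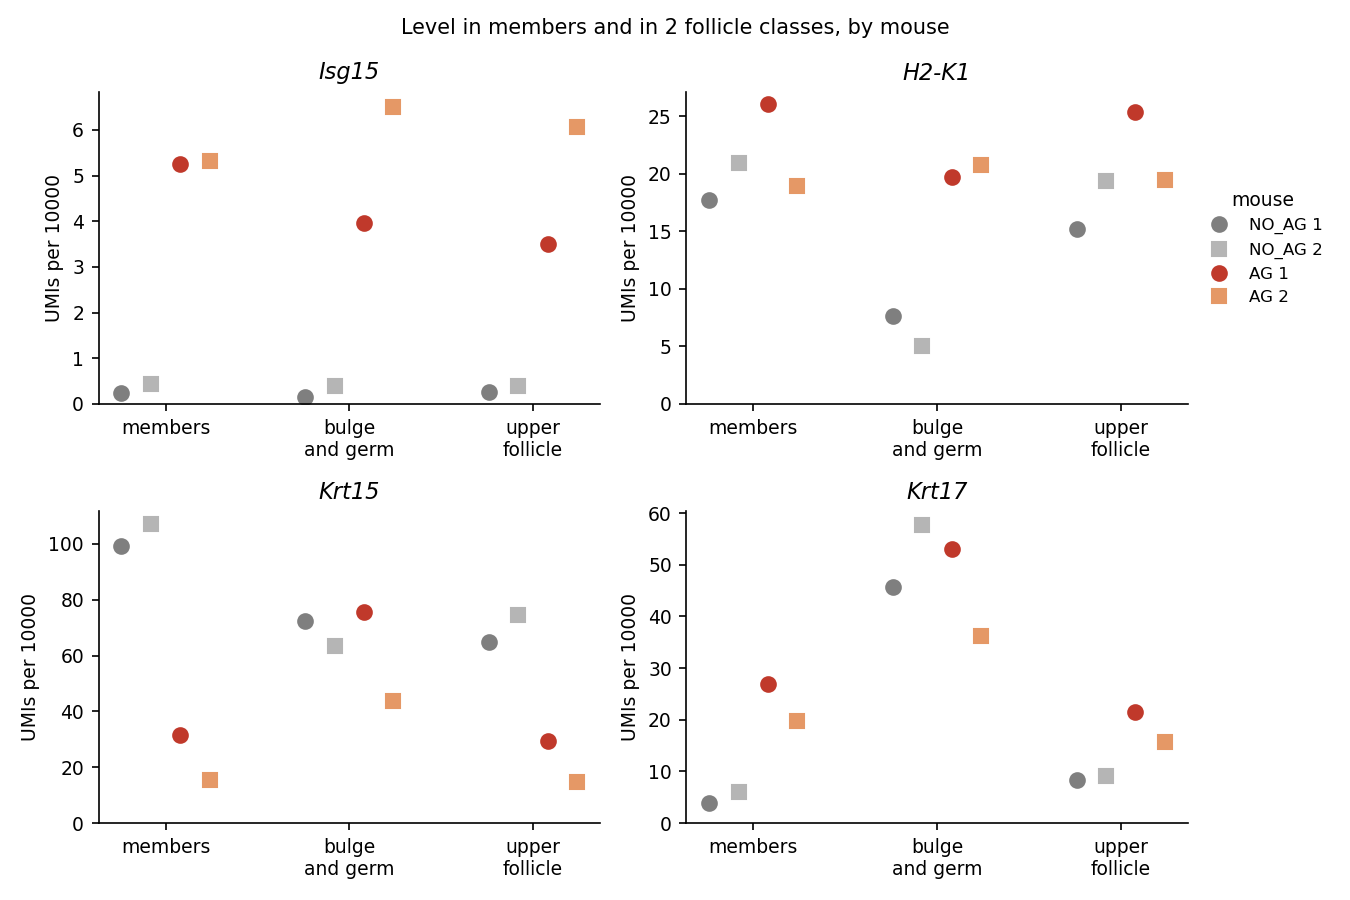
Mean UMIs per 10000 (y axes, from 0) of Isg15, H2-K1, Krt15 and Krt17 in members, bulge and germ cells and upper follicle cells (x axes), with 1 point per NO_AG or AG mouse. Isg15 is high in both AG mice in all 3 classes, and Krt15 is low in both AG mice in members and upper follicle cells.

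The AG_CPI mice can be described by values alone. Only AG_CPI 1, with 13 members and 34835 UMIs, entered the fit, and AG_CPI 2, with 6 members and 14693 UMIs, fell short of 10 cells. The fit called 2019 genes in AG_CPI against AG (28.7%), 202 higher (2.87%) and 1817 lower (25.9%). In AG_CPI against NO_AG it called 2379 (33.9%), 165 higher (2.35%) and 2214 lower (31.5%). Of the lower genes 1278 and 1644 had no UMI at all in AG_CPI 1, so these counts are not read as changes. The T cell marker sums of 4.52 and 11.3 stand beside the values that follow, and their part in them was not tested. Ifi27l2a had 62 UMIs in AG_CPI 1, or 17.8 per 10000 pooled UMIs (exact Poisson 95% interval 13.6 to 22.8, counting error only), and 13 in AG_CPI 2, or 8.85 (4.71 to 15.1). Isg15 had 4 UMIs, or 1.15 (0.313 to 2.94), and 1 UMI, or 0.681 (0.0172 to 3.79). Krt15 had 45 UMIs, or 12.9 (9.42 to 17.3), and 16 UMIs, or 10.9 (6.22 to 17.7), against 29.3 and 15.2 in the AG mice on this pooled scale. Krt17 had 3 UMIs in each mouse, or 0.861 (0.178 to 2.52) and 2.04 (0.421 to 5.97), against 32.6 and 20.9 in the AG mice. B2m had 87 and 29 UMIs, or 24.97 (20.004 to 30.8) and 19.7 (13.2 to 28.3), and the AG mice had 27.7 and 22.9.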

How the data were processed

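Per the labels' protocols, skin cell suspensions were sequenced with a 10x Genomics 5' kit; the submitters' processing notes name Cell Ranger 3.1 and mm10. The deposited values are log10 values: 1 was added to a gene's UMIs scaled to 10000 per cell, as read from the values, which all returned whole UMIs. The 6 libraries hold 16158 gene columns. Members and lists were chosen with earlier results of these data known. Since the unit is log10 and not counts, limma 3.58.1 (R 4.3.3) replaced the count model that had been foreseen. Linear values were averaged over the members of a mouse, scaled by trimmed mean of M-values, and logged as log2 after a pseudocount of 0.1, so fold changes of low genes are understated. Genes needed 10 UMIs and a mean of 0.1 in at least 2 libraries, a library needed 10 members, and group was the only term. Levels in the text are unscaled means per 10000. Genes of the rule were left out. Named are called genes whose groups lay apart (up to 12 each way by p, without sex-linked, mitochondrial, ribosomal, receptor-segment or predicted genes), 46 fixed genes and list members; Apol9a, and list members named without passing the test, were chosen after their values were seen; 1 called gene is not reported here. Doublets (Scrublet in scanpy 1.11.5) and cells of low quality were kept; removing them, 14 members among them, was an alternative. Other alternatives changed the rule, scaling, pseudocount, filter, depth, weights and libraries. The fit was tested on simulated data. With 2 mice a group, p-values rest on a spread shared across genes.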

Additional observations from a re-analysis of the deposited data

Results flagged for a closer look

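The members of AG_CPI 2, which entered no test, had 6 of 15 called genes above both NO_AG mice, in that the lower bound of the exact Poisson 95% interval exceeded the higher NO_AG value. Only these 15 genes were checked in this way. The share over all genes is not known, so the count is not read as a result. Stfa3 had 25.9 UMIs per 10000 pooled UMIs from 38 UMIs (18.3 to 35.5), Ifi27l2a 8.85 from 13 UMIs (4.71 to 15.1), and Aqp3 6.13 from 9 UMIs (2.80 to 11.6). Cxcl9 had 2.72 from 4 UMIs (0.742 to 6.97). Ccl8 and Apol9b had 1.36 each, from 2 UMIs (0.165 to 4.92). The 12 T cell markers summed to 11.3 in these 6 cells, and their part in the values was not tested.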

How the results depend on the processing

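The 16 genes called in AG against NO_AG kept their direction wherever they could be tested, but their number depended on the setting. It was 1 with at least 3 interfollicular genes, 10 with summed UMIs over summed totals, 0 with cells thinned to 1500 UMIs (493 at an unadjusted p under 0.05), 0 without a filter on low values (1254), and 128 with mice weighted by their cells; limma made each count. A library minimum of 5 cells gave 0 (313 at an unadjusted p under 0.05), restriction to the NO_AG and AG mice 11, and restriction to 372 genes with a mean of at least 3 gave 11, of which 5 were among the 16; these 3 settings were chosen after seeing the data. Among the 11 were Krt15, Krt17, Krtdap and Cd74. Leaving out 1 mouse at a time gave 11 to 3674 calls, the extremes without AG_CPI 1 and without AG 1; without AG 2 it was 1667, and then a single pair of mice sets the spread. Of the 16, all 13 that could be tested were called without AG 1, and all 13 without AG 2. With the replicate number as a block, 167 genes were called, all 16 among them, and 1 in the comparison with upper follicle cells. The deviations of NO_AG 1 and AG 1 from their group means had a correlation of r = -0.02 over genes. That value leaves out AG_CPI and cannot tell whether the numbers pair the mice. AG_CPI against AG gave 1296 calls with Krt5 and Krt14 at 100 or more, 968 thinned, 880 with a pseudocount of 0.5, 516 without a filter, 4 weighted, 1081 with 5-cell libraries, 6 among genes with a mean of at least 3, and 839 to 5120 with 1 mouse left out. AG_CPI against NO_AG gave 1403, 1479, 1185, 535, 11, 1496, 30 and 534 to 5384 in that order. Leaving out 1 mouse gave 0 to 2736 calls for the difference from bulge and germ cells and 0 to 2929 for upper follicle cells, the highest without AG 1 (without AG 2, 295 and 448). Log2 changes, uncalled over all mice, that turned their sign were, with at least 3 interfollicular genes, Ifngr2 (0.25), Irf1 (-0.13) and Itga6 (0.13), thinned H2-D1 (-0.0013) and Irf1 (-0.28), and weighted Cav1 (0.030). With 1 mouse left out the change spanned 0 for Itga3 (-0.15 without NO_AG 2, 0.49 without NO_AG 1) and, from the value without AG 1 to that without AG 2, for H2-D1 (-0.25 to 0.53), H2-K1 (-0.13 to 0.52), Irf1 (-0.063 to 0.69), Cav1 (-0.96 to 0.45) and Fas (-1.58 to 0.18). Among these, limma called Cav1 lower without AG 1 (adjusted p = 5.39e-05) and higher without AG 2 (0.0387), Fas lower without AG 1 (1.14e-06), and H2-D1, H2-K1 and Irf1 higher without AG 2 (0.0181, 0.0273 and 0.0113). The difference in change from bulge and germ cells did so for Cxcl10 (-0.56 to 1.05) and Cxcl9 (-0.58 to 1.45), from the value without NO_AG 1 to that without NO_AG 2, and for Gbp2 (-0.22 without AG 1, 0.76 without AG 2) and Isg15 (-0.67 without AG 1, 0.12 without AG 2). The difference from upper follicle cells did so for B2m (-0.0031 to 0.17), Isg15 (-0.24 to 0.64) and Psmb8 (-0.010 to 0.29), from the value without AG 1 to that without AG 2. The cause was not tested. The share of members among Krt5- and Krt14-high cells in AG_CPI minus AG, -0.14 percentage points, became 0.411 with the minimum of 100 and ranged from -3.88 to 3.60 with 1 mouse left out; the differences from NO_AG stayed negative.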
